A study of Homo sapiens with 4 samples.

Results

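The ISG15 conjugation system was examined across the 4 RNA-seq libraries, as 6 genes fixed by name (*ISG15*, *UBA7*, *UBE2L6*, *HERC5*, *HERC6* and *USP18*) out of 57820 genes listed. All 6 were found by their symbol, each under 1 gene identifier, and all 6 passed the filter on low counts, as did 20528 genes in all. The libraries came from SK-N-SH, an established human neuroblastoma cell line. In 2 of them the cells were transduced with a lentivirus that expressed the lncRNA *RP5-998N21.4* from the EF1a promoter (*RP5-998N21.4* OE), and in the other 2 with the same lentivirus vector without an insert (vector control), so that both conditions carry a lentivirus. The control libraries have WT in their titles, and the empty vector is named under treatment. The labels do not say whether the 2 libraries of a condition came from separate transductions, so the tests measure the spread between libraries, which may be technical.

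ISG15 is a ubiquitin-like protein that interferon induces strongly, and it is attached to other proteins by a cascade of enzymes of the same kind as those of ubiquitin. UBA7 is the activating enzyme (E1), UBE2L6 is the conjugating enzyme (E2), and HERC5 is the main ligase (E3) in human cells. HERC6 is the close relative of HERC5 encoded next to it and serves as the ligase in mice. USP18 removes ISG15 from its targets and also holds back signalling at the type I interferon receptor. All of these genes are known interferon-stimulated genes, read by the ISGF3 complex, of which STAT2 and IRF9 are parts.

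In the hg19 annotation used here, *ISG15* (ENSG00000187608.5) spans 936518 to 949920 of chromosome 1 (plus strand). The identifiers carry the versions of the count data, and each span is that of the whole annotated gene. Its first base can therefore differ from the RefSeq start used for the promoters below. *UBA7* (ENSG00000182179.6) spans 49842642 to 49851386 of chromosome 3 (minus strand), and *UBE2L6* (ENSG00000156587.11) spans 57319129 to 57335757 of chromosome 11 (minus strand). *HERC6* (ENSG00000138642.10) and *HERC5* (ENSG00000138646.4) are neighbours on chromosome 4 (plus strand), spanning 89299891 to 89364249 and 89378270 to 89427314. *USP18* (ENSG00000184979.9) spans 18632885 to 18660164 of chromosome 22 (plus strand).

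Interferon-stimulated genes often carry an interferon-stimulated response element before their start, whose core was searched here on both strands as a pair of GAAA repeats with any 2 bases between them. RefSeq promoter sequences (GRCh38.p14) were at hand for 4 of the 6 genes, and not for *UBA7* and *USP18*. The 250 bases before the start of the modifier gene and of the 2 neighbouring ligase genes are shown, since the 3 differ in their matches to this motif and the neighbouring pair is compared in expression further on. Capitals mark the motif, and each sequence runs 5′ to 3′ towards the start on the gene's own strand, which is the plus strand for all 3. They are chr1:1013247-1013496 for *ISG15*, chr4:88456869-88457118 for *HERC5* and chr4:88378602-88378851 for *HERC6*.
ISG15: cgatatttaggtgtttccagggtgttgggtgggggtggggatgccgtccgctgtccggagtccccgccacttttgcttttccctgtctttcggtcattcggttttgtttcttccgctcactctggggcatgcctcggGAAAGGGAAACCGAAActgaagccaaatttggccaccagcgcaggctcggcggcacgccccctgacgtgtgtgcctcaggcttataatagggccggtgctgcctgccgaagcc
HERC5: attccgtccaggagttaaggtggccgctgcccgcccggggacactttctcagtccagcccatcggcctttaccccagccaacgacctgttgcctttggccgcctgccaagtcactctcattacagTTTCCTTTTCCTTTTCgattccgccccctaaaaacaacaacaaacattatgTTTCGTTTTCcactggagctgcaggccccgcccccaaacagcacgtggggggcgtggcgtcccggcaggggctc
HERC6: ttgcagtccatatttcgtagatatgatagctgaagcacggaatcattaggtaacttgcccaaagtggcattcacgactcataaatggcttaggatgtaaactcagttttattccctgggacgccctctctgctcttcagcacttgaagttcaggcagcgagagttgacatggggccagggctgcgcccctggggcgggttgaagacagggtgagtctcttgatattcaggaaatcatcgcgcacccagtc

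*ISG15* held 2 overlapping matches, the first from 113 to 104 and the second from 107 to 98 bases before the start. *HERC5* held 3 matches, all on the opposite strand, of which 2 overlapped between 125 and 110 bases before the start and the last lay from 74 to 65 bases before it. *HERC6* and both annotated starts of *UBE2L6* had 0 matches in this window. Of all 35116 promoter windows of this length, 3.02% held the motif. A second motif of interferon signalling, the gamma-activated site TTCNNNGAA, which reads the same on both strands, was found in 6.57% of all windows and in 0 of the 5 windows of these 4 genes.

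**Figure D1:**
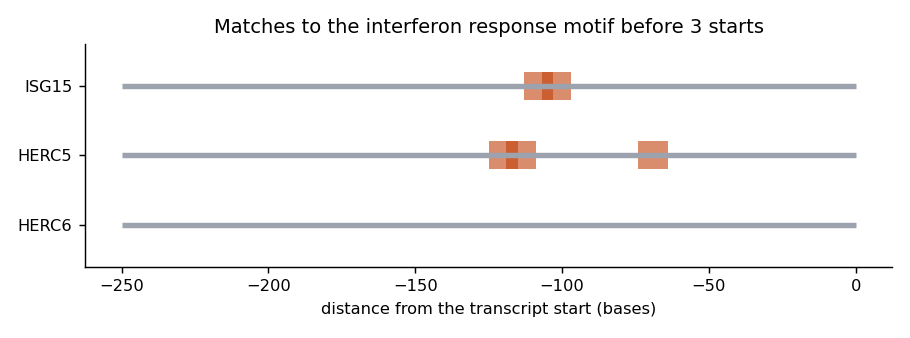
Positions of matches to the paired GAAA repeats in the 250 bases before the start of *ISG15*, *HERC5* and *HERC6*, with the distance from the start in bases on the x axis and the shaded blocks standing for matches, darker where 2 overlap. *ISG15* has 2 matches and *HERC5* has 3, while *HERC6* has 0.

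Expression is given in counts and in CPM, the counts scaled to the TMM-normalized size of each library so that libraries can be compared. Total counts per library lay between 23785164 and 28307591. For the overexpressed lncRNA itself, 32 and 33 reads were counted in the controls against 2407 and 2808 in OE. Of the neuroblastoma markers, 9 of 10 adrenergic genes were tested, *TH* was at 0 counts in every library, and the other 9, among them *HAND2* and *DBH*, were present in all 4 libraries. All 6 mesenchymal markers were present too. Of 9 immune cell markers, 3 were at 0 in every library, among them *CD3E* and *LYZ*, and *PTPRC* reached at most 4 counts. As these are bulk samples, fewer cells of a type and less RNA per cell cannot be told apart.

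*HERC6* was the member with the clearest difference between the conditions. Control replicates 1 and 2 held 207 and 243 counts of *HERC6*, against 479 and 494 for OE replicates 1 and 2. Both OE libraries lay above both controls, and the groups did not overlap. The mean level was 9.62 ± 1.03 CPM (SD, n = 2) without and 18.1 ± 1.42 CPM (SD, n = 2) with the lncRNA, 1.88 times as high. This is a log2 fold change of 0.91 (standard error 0.151, 95% interval from 0.48 to 1.34). Its unadjusted p was 0.00466 and its adjusted p was 0.0987 in edgeR's quasi-likelihood test over all 20528 genes, so it did not pass the study's thresholds, which ask for an adjusted p below 0.01 together with a log2 fold change beyond 0.5 either way. Among all genes, 122 (0.594%) had an adjusted p below 0.05, and 0 of the 6 members did. DESeq2's Wald test, the tool the study's methods name, gave nearly the same log2 fold change (0.91, standard error 0.174) with an adjusted p of 3.24e-06 and called it. Both tools estimate the same size and differ in how firmly they call it. With each library left out in turn, the log2 fold change of *HERC6* stayed between 0.80 and 1.02. The unadjusted p was at most 0.0256 over all 13 alternatives.

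*HERC5*, the neighbour of *HERC6* and the main human ligase for ISG15, was counted 208 and 171 times in control replicates 1 and 2 and 232 and 258 times in OE replicates 1 and 2. After normalization the lower OE library (8.92 CPM) lay just under the higher control (8.93 CPM), so the groups overlapped. Mean *HERC5* was 8.11 ± 1.17 CPM (SD, n = 2) for the controls and 9.08 ± 0.231 CPM (SD, n = 2) for OE. Its log2 fold change was 0.16 (95% interval from -0.31 to 0.64, adjusted p = 0.636 from edgeR's test), and the difference was within the spread between the controls. The interval of *HERC5* reaches above the lower end of that of *HERC6*, and the difference between the 2 genes was not tested. The ratio of *HERC6* to *HERC5* counts was 0.995 and 1.42 among the controls and 2.06 and 1.91 among the OE libraries, so both OE libraries lay above both controls in this ratio as well. In the windows searched, *HERC5* held the motif matches printed above and *HERC6* held 0. These windows end at RefSeq starts, which differ from the hg19 starts given above for at least 1 of the 2 genes. Sequence beyond the windows was not searched, and a link between the motif and expression was not tested.

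**Figure D2:**
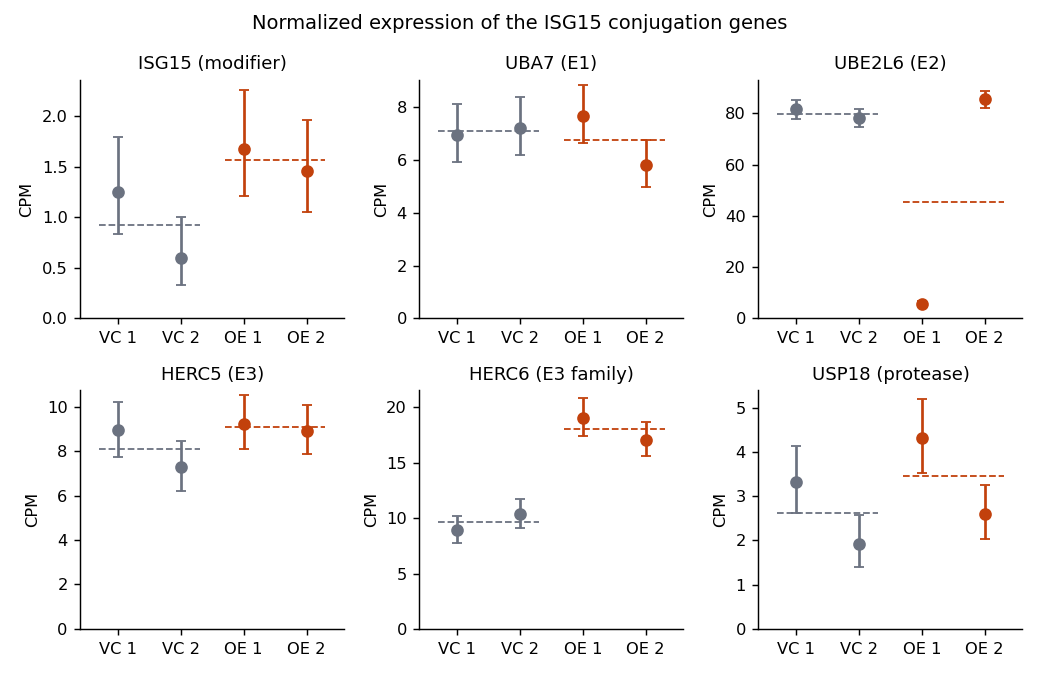
Normalized expression (CPM, y axis from 0) of the 6 genes in the 2 vector control (VC) and the 2 OE libraries. Points are libraries, bars are exact Poisson 95% intervals for counting error only, and dashed lines are group means. *HERC6* lies from 17.1 to 19.1 CPM in OE against 8.89 to 10.3 CPM in the controls, and *UBE2L6* falls to 5.62 CPM in OE replicate 1 alone.

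*ISG15*, the modifier itself, was among the low-count genes. Control replicates 1 and 2 held 29 and 14 counts of it, and each OE library held 42. Both OE libraries lay above both controls, and the controls differed from each other by 2.09 times. Mean *ISG15* was 0.921 ± 0.459 CPM (SD, n = 2) for the controls and 1.56 ± 0.157 CPM (SD, n = 2) for OE. Its log2 fold change was 0.76 (95% interval from -0.53 to 2.05, adjusted p = 0.422 from edgeR's test), and no test run here called it at the study's thresholds. Counting error alone is wide at this depth. Its exact Poisson 95% interval was 0.834 to 1.79 CPM in vector control replicate 1 and 0.326 to 1.00 CPM in replicate 2. Those of the OE libraries were 1.21 to 2.26 and 1.05 to 1.96 CPM, so they overlapped the interval of the first control and lay above that of the second. A difference between the conditions in *ISG15* was not detectable at this depth and spread. Its fold change rested on the controls, with a log2 value of 1.38 without vector control replicate 1 (unadjusted p = 0.0478 from edgeR's test) and 0.32 without vector control replicate 2. The annotation places 2 other genes over the *ISG15* span given above, but it does not hold the counted transcript. The antisense lncRNA ENSG00000224969 among them had at most 8 counts per library, and the use of strand in the counting is not given in the sources used here.

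*USP18*, the protease of the system, was counted 77 and 45 times in control replicates 1 and 2 and 108 and 75 times in OE replicates 1 and 2. The lower OE library lay below the higher control, so the groups overlapped, and replicate 1 was above replicate 2 in both conditions. Mean *USP18* was 2.61 ± 0.984 CPM (SD, n = 2) for the controls and 3.45 ± 1.21 CPM (SD, n = 2) for OE, a difference smaller than the SD of either group. On the log2 scale the fold change was 0.40 (95% interval from -0.82 to 1.61, adjusted p = 0.652 from edgeR's test). It was 0.84 when control replicate 1 was left out and 0.05 when control replicate 2 was, and without OE replicate 1 it was -0.0091. *USP18* counts are uncertain where reads are shared with its copy *USP41*, also on chromosome 22. Over 917 aligned bases the annotated *USP41* transcript was 98.7% identical to that of *USP18* (12 mismatches and 0 gap bases). *USP41* was listed with 0 counts in all 4 libraries.

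*UBA7*, the activating enzyme, was counted 162 and 170 times in control replicates 1 and 2 and 193 and 168 times in OE replicates 1 and 2. The OE libraries lay on either side of both controls in CPM, with 7.69 in replicate 1 and 5.81 in replicate 2 against 6.96 and 7.24 in the controls. The log2 fold change of *UBA7* was -0.07 (95% interval from -0.65 to 0.50, adjusted p = 0.873 from edgeR's test), the smallest change among the 6 genes. Its sign turned to 0.12 without OE replicate 2.

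*UBE2L6*, the conjugating enzyme, split the OE libraries. Its counts were 1899 and 1836 for the controls, 141 for OE replicate 1 and 2472 for OE replicate 2. In CPM the controls were at 81.6 and 78.1 and OE replicate 2 was at 85.5, while OE replicate 1 was at 5.62. Thus 3 libraries stood close together and 1 stood far below, and the group mean of 45.5 ± 56.5 CPM (SD, n = 2) describes neither OE library. Over all 4 libraries its log2 fold change was -0.81, with a 95% interval from -4.46 to 2.84 (adjusted p = 0.768 from edgeR's test). It was 0.10 without OE replicate 1 and -3.83 without OE replicate 2 (adjusted p = 0.0484 from edgeR's test), so its direction turned on a single library. Nearly all reads lay on 1 of its 5 listed transcripts (ENST00000340573.4) in every library, with 1899, 1832, 137 and 2472 counts, and the other transcripts of the gene held at most 4 counts per library. Among listed genes within 30 kb, the highest count in OE replicate 1 was 646 (*TIMM10*), which was at 350 to 541 counts in the other libraries.

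Other genes shared this pattern. Of the 14023 genes averaging 4 CPM or more, 81 (0.578%) were over 10-fold lower in OE replicate 1 than in each of the others. The same held for 63 (0.449%) and 65 (0.464%) genes in control replicates 1 and 2 and for 62 (0.442%) in OE replicate 2, so each library had such genes. The OE replicates differed by 15.2 times in *UBE2L6*, and 156 genes (1.11%) differed between them by more. In either condition, 3.04% of these genes differed over 10-fold between replicates. The cause was not tested, and *UBE2L6* is therefore given as values per library.

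**Figure D3:**
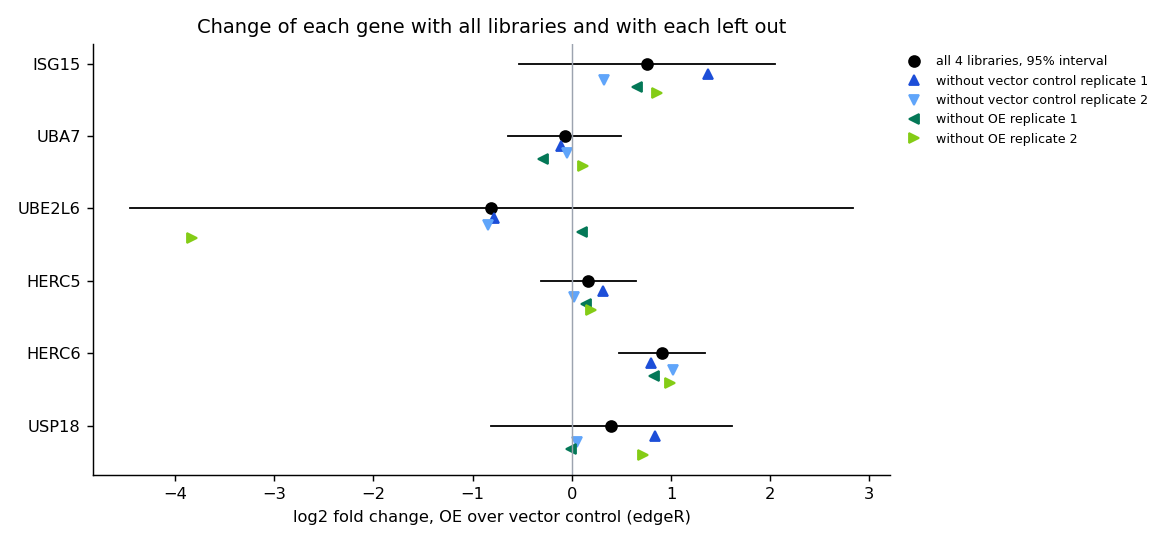
Log2 fold change (OE over vector control, edgeR, x axis) of each member. Black points and lines give the value and 95% interval with all 4 libraries, and triangles give the value with 1 library left out. *HERC6* stays between 0.80 and 1.02, while *UBE2L6* moves between -3.83 and 0.10.

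Levels were compared between the genes per length, as CPM per kilobase of the transcript that held most counts. For *ISG15*, whose counted transcript is not in the annotation used here, the shortest (637 nt) and longest (787 nt) annotated coding transcripts gave a range. In the vector control, *UBE2L6* stood highest with a mean of 50.8 CPM per kb. *HERC6* (2.54), *HERC5* (2.31) and *UBA7* (2.15) followed, then *USP18* (1.41) and *ISG15* (1.17 to 1.45). The control libraries of *HERC6* and *HERC5* overlapped, as did those of *HERC5* and *UBA7* and those of *USP18* and *ISG15*, while both *HERC6* controls (2.35 and 2.74) lay above both *UBA7* controls (2.11 and 2.19). In the OE libraries *HERC6* had a mean of 4.78 CPM per kb, and its lower library (4.52) was above the higher libraries of *HERC5* (2.63) and *UBA7* (2.33). *UBE2L6* was at 3.57 CPM per kb in OE replicate 1, under *HERC6* in that library, and at 54.3 in OE replicate 2. *ISG15* was at 1.99 to 2.45 CPM per kb and *USP18* at 1.86 in OE, again with overlapping libraries. Whether *ISG15* lay above or below *UBA7* (a mean of 2.04 in OE) depended on the length taken.

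**Figure D4:**
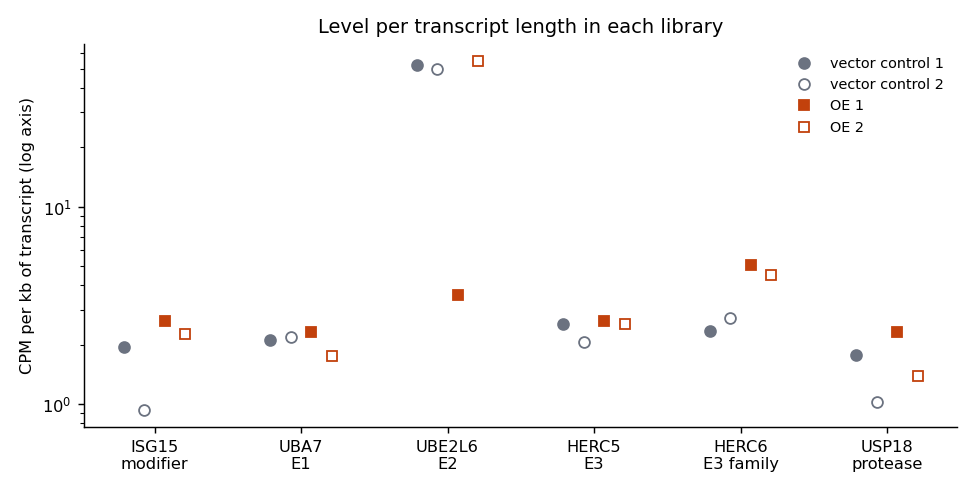
CPM per kilobase of transcript (log y axis) of the 6 genes in each library, with *ISG15* drawn at its shortest annotated coding length. *UBE2L6* is between 49.7 and 54.3 in 3 libraries and at 3.57 in OE replicate 1, and the other 5 genes lie between 0.935 and 5.05.

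The reads of each member were placed almost wholly on 1 transcript. *ISG15* and *USP18* have 1 listed transcript each. *HERC6* has 8 listed transcripts, of which ENST00000380265.5 held 194 and 227 counts for the controls and 479 and 468 for OE. A second *HERC6* transcript (ENST00000506714.1) held 13 counts in each control, 0 in OE replicate 1 and 26 in OE replicate 2. *HERC5* has 5 listed transcripts, and ENST00000264350.3 held all but 12 and 9 counts, in vector control replicate 2 and OE replicate 2. The difference of *HERC6* between the conditions thus lay on its main transcript.

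Read as a group, 0 of the 6 members were called by edgeR's test at the study's thresholds, as were 0 of all 20528 genes (0.0%). In edgeR's test, 1 member was higher in OE and 0 were lower with an unadjusted p below 0.05, where 10.1% and 10.7% of all genes were (20.8% in either direction). Both OE libraries lay above both controls in 2 of the 6 (*HERC6* and *ISG15*) and below in 0, against 27.8% and 27.6% of all genes. DESeq2 called 1 of the 6 higher and 0 lower, against 4.35% and 4.42% of all genes (8.77% in either direction). The median log2 fold change of the 6 was 0.28, beside 0.01 over all genes tested. With 2 libraries per condition, the smallest two-sided p of an exact permutation test is 0.333, so no such test could pass 0.05.

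Genes tied to ISG15 were followed in 5 lists that hold 57 genes, of which 55 were tested. Of these, edgeR's test put 7 higher and 3 lower in OE with an unadjusted p below 0.05, against 10.1% and 10.7% of all genes. Their median log2 fold change was 0.05, and 0 were called at the study's thresholds. DESeq2 called 3 of the 55 higher and 0 lower, where it called 4.35% and 4.42% of all genes. In 13 of the 55 genes, with no minimum level, the replicates of a condition differed more than 4-fold, and over all genes averaging 4 CPM or more the share was 6.39%. The lists were drawn up with earlier results of these data known.

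Of the 7 further enzymes linked to ISG15, *TRIM25*, a ligase described for both ubiquitin and ISG15, averaged 198 ± 13.3 CPM (SD, n = 2) for the controls and 256 ± 7.42 CPM (SD, n = 2) for OE. Its log2 fold change was 0.37 (adjusted p = 0.129 from edgeR's test). *USP21*, a protease that accepts ubiquitin and ISG15, had a log2 fold change of -0.50 (adjusted p = 0.202 from edgeR's test), from 38.1 ± 5.80 to 27.0 ± 1.56 CPM (SD, n = 2). Of the other 5 enzymes, the ligase gene *ARIH1*, singled out after its values were seen, resembled *UBE2L6*, with 2585, 2408 and 3212 counts in 3 libraries and 225 in OE replicate 1. *USP5*, *USP13*, *USP14* and *USP16* did not pass an unadjusted p of 0.05.

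Of 22 proteins described as ISG15 targets, 4 genes were higher and 1 was lower with an unadjusted p below 0.05 (edgeR's test). Over all genes tested, 10.1% were higher and 10.7% were lower by the same measure. *IFIT1*, which binds viral RNA, averaged 9.18 ± 2.33 CPM (SD, n = 2) for the controls and 23.1 ± 2.16 CPM (SD, n = 2) for OE (log2 fold change 1.33, adjusted p = 0.105 from edgeR's test). *IFIH1*, the sensor of long double-stranded RNA, averaged 12.8 ± 0.868 and 18.4 ± 0.330 CPM (SD, n = 2), and its log2 fold change was 0.52 (adjusted p = 0.147 from edgeR's test). *TRIM25* is also in this list. *TSG101*, of the endosomal sorting machinery, was the lower one, with a log2 fold change of -0.33 (adjusted p = 0.202 from edgeR's test). DESeq2 called *IFIT1* and *IFIH1* higher, where it called 4.35% of all genes higher.

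Of the 8 genes of the receptor chain, on which USP18 acts and which drives these genes, *STAT2* had a log2 fold change of 0.28 (adjusted p = 0.169 from edgeR's test). *IRF9*, the DNA-binding part of ISGF3, had 24 and 21 counts for the controls and 5 and 8 for OE (log2 fold change -1.99, adjusted p = 0.128 from edgeR's test). The difference in *IRF9* was opposite in sign to that of *STAT2*. *SKP2*, *TYK2*, *JAK1*, *IFNAR1* and *IFNAR2* did not pass an unadjusted p of 0.05.

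Relatives of the members in other conjugation systems were followed as well. *HERC1*, *HERC2*, *HERC3* and *HERC4* had log2 fold changes of 0.05, 0.09, 0.21 and 0.21, and *UBA1* and *UBA6* of -0.18 and -0.13, and 0 of these 6 passed an unadjusted p of 0.05 in edgeR's test. *UBE2L3*, the nearest relative of *UBE2L6*, was counted 31 and 25 times in the controls and 2898 and 3185 times in OE (log2 fold change 6.55, adjusted p = 0.0123 from edgeR's test). All counts of *UBE2L3* lay on 1 of its 4 listed transcripts (ENST00000496722.1), and DESeq2 called it. *SAE1*, a part of the SUMO-activating enzyme, had wide gaps within each condition, with 1828 and 28 counts in the controls and 3171 and 102 in OE. Their cause was not tested. Of 12 ubiquitin and other modifier genes, 11 were tested and 5 of these differed more than 4-fold between replicates. Over all genes averaging 4 CPM or more, the share was 6.39%. *UBD*, which encodes the interferon-inducible modifier FAT10, had 0 counts in every library.

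**Figure D5:**
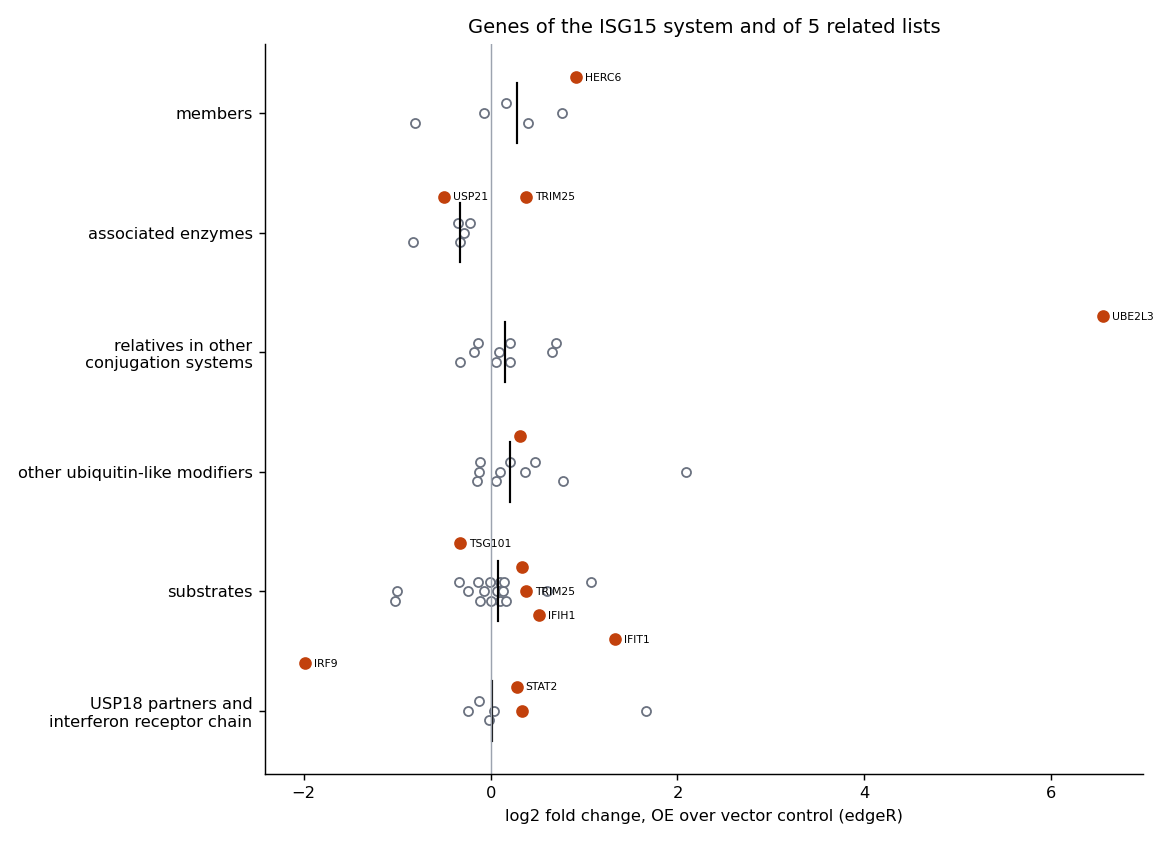
Log2 fold change (OE over vector control, edgeR, x axis) of the 6 members and of the tested genes of the 5 lists, with points spread vertically for legibility. Filled points, most of them named, have an unadjusted p under 0.05, open points do not, and vertical bars are medians. *HERC6* is the 1 filled member, and *UBE2L3* lies at 6.55.

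The neuroblastoma state markers differed between the same libraries, beside *HERC6* and the other members. The summed level of the 10 adrenergic markers was 594 and 663 CPM in the vector control and 1061 and 1005 CPM in OE. Both OE libraries lay above both controls in 9 of the 9 tested, and in 27.8% of all genes tested. Of the 6 mesenchymal markers, *CD44*, *SNAI2*, *PRRX1* and *YAP1* lay below both controls in both OE libraries, as did 27.6% of all genes. *VIM* lay above both controls in both OE libraries. *FN1* overlapped, at 386 and 332 CPM in the vector control and 362 and 337 CPM in OE. The sum of the 6 was 2101 and 2072 CPM in the vector control and 2572 and 1611 CPM in OE. The sum was high in OE replicate 1 because *VIM* was at 1254 CPM there and at 348 to 376 CPM in the other libraries. The part of these markers in the difference of *HERC6* was not tested. The 9 immune markers summed to 18.4 and 17.5 CPM in the vector control and 8.77 and 11.7 CPM in OE, and most of this difference lay in *CD68*, at 10.3 and 10.1 CPM against 0.0797 and 4.36 CPM. *ITGB2*, the other main part of the sum, was at 7.04 and 6.21 CPM against 7.77 and 5.88 CPM, and 0 of the 3 tested immune markers passed an unadjusted p of 0.05 in edgeR's test.

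For each member the genes with the most alike pattern were taken as those with the smallest root mean square difference between centred log2 CPM profiles over the 4 libraries, among 13424 genes averaging 5 CPM or more. They describe 4 points only. For *HERC6* these were *SLC7A14* (0.0084), *ADRA2C* (0.0302) and *TRAP1* (0.0392 log2 units). *SLC7A14* was at 14.1 and 16.4 CPM in the vector control and 30.5 and 27.1 CPM in OE. For *ISG15* they were *TBP* (0.0328), *DNER* (0.044), *KNOP1* (0.0513), *THOC1* (0.0548) and *MAP7D2* (0.0549). *TBP*, the TATA-binding protein, was at 27.0 and 17.3 CPM in the vector control and 34.8 and 29.5 CPM in OE, with the same low second control as *ISG15*. For *UBE2L6* they were *GLOD4* (0.0791), *FBXO28* (0.0849) and *ZNF768* (0.0867), all low in OE replicate 1 alone, as with *FBXO28* at 178, 170, 11.3 and 167 CPM. For *HERC5* they were *PFN1P7*, *LEO1* and *UBXN7*, for *UBA7* *CNPY3*, *MAP3K14* and *RNF144A-AS1*, and for *USP18* *CD63*, *SLC7A5P2* and *LYRM1*.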

How the data were processed

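The authors deposited raw counts, 1 value per transcript and library, on the hg19 build. Tools named upstream of these counts are Bowtie2 (alignment), Trimmomatic (trimming) and FastQC (read checks). Their processing notes also name Bowtie2 2.0.4, Picard 2.21.6, StringTie 2.1.6 and DESeq2, with no role. The counting step, annotation release and strand setting are not given in the sources used here. Groups and replicate numbers came from the sample titles. The 196520 transcripts were summed to 57820 genes, 20528 genes passed filterByExpr, and all were tested with TMM and edgeR's quasi-likelihood test (edgeR 4.0.16, R 4.3.3, no covariates, Benjamini-Hochberg adjustment over all tested genes). The standard error is the log2 fold change divided by the root of the test's F. DESeq2 1.42.0 and limma-voom (limma 3.58.1) were alternatives, with other normalizations and filters, a replicate block and each library left out. The scripts were tested on simulated counts. The members, lists and tests were chosen with earlier results of these data known. Genes outside the members were named by rule if they were on a list and passed an unadjusted p of 0.05 by edgeR, or were nearest by profile (5 for *ISG15*, 3 for each other member, on log2 of CPM + 0.5). Any other list gene, marker or neighbour named was chosen after its values were seen. Positions are from the lifted GENCODE annotation (GRCh37), and transcripts were aligned with Biopython 1.88. There are no molecular identifiers, so Poisson intervals describe counting error alone. Values of a few list genes and markers are not reported here.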

Additional observations from a re-analysis of the deposited data

How the results depend on the processing

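The number of members called at the study's thresholds was 0 in every setting but DESeq2, where it was 1 (*HERC6*, with a log2 fold change of 0.91 and an adjusted p of 3.24e-06). The adjusted p of *HERC6* ranged from 3.24e-06 to 0.304 over 13 alternatives. For the 5 lists the number called was 0 in the main edgeR fit and 3 with DESeq2. With a minimum of 1 count in total, edgeR's test called 1 of them (*UBE2L3*), and 9 of all 31393 genes in that setting. At an unadjusted p under 0.05, the number of members was 1 to 2 with each library left out (*ISG15* was added without vector control replicate 1, *UBE2L6* without OE replicate 2), and that of list genes was 6 to 10, against 10 with all libraries and 16 with DESeq2. With each library left out, the log2 fold change ranged from -3.83 to 0.10 for *UBE2L6*, from -0.0091 to 0.84 for *USP18* and from -0.29 to 0.12 for *UBA7*. Signs turned without OE replicate 1 (*UBE2L6*, *USP18*) and without OE replicate 2 (*UBA7*), and the cause was not tested. Over all genes, 0 were called by the main edgeR fit and 1800 by DESeq2, and 4269 and 5927 had an unadjusted p under 0.05. With only the transcript of the highest mean count per gene, edgeR's test called 1. Replicates share numbers across the conditions, but differences between the numbers were not shared (correlation -0.022 across genes). With the number as a replicate block, the members called stayed at 0 and the lists at 0, the log2 fold change of *HERC6* was 0.91 (adjusted p = 0.304 from edgeR's test), and the genes with an unadjusted p under 0.05 fell from 4269 to 3060. With 14 counts in 1 control, *ISG15* is limited by depth, and a left-out library leaves a lone sample that is assumed to vary like the other condition.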
